A study of Homo sapiens with 9 samples.

Results

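The genes described here form the LIN28 and let-7 oncofetal axis: LIN28A, LIN28B, HMGA1, HMGA2, IGF2BP1, IGF2BP2, IGF2BP3, ARID3B and DICER1. These 9 genes were taken by symbol from the 58381 gene rows of the deposited tables, and all 9 were among the 17235 genes that passed the filter on low counts. The set was selected on their fold changes and levels in these same comparisons, known from an earlier look at the data, so the values given are descriptions and carry no p-value.

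RNA-seq was performed on TC-32, an established cell line of Ewing sarcoma, a tumour driven here by the fusion oncogene EWSR1::FLI1, in 3 groups of 3 libraries. RFP cells carried the lentiviral pLOC vector with a red fluorescent protein. ETS1-Low and ETS1-High cells carried pLOC with a synthetic human cDNA of the transcription factor ETS1, and all groups kept the fusion. Per the labels, transduced cells were selected in puromycin and sorted singly, the ETS1 lines were clones, and ETS1-High was chosen to match the ETS1 level that cells reach on loss of the fusion. The number of clones behind each group is not given, nor whether the RFP cells were a clone. Errors therefore measure the spread between libraries as labelled, and the ETS1 level cannot be told apart from other properties of the clones.

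The total of the expected counts ran from 39484704 to 46654734 per library. Levels are given as CPM, counts scaled to a common library total with TMM-normalised library sizes, which compare groups for 1 gene, or as deposited FPKM, which also corrects for length and allows genes to be compared. ETS1 itself had 2.00 ± 0.17 CPM with RFP, 10.6 ± 0.30 CPM with ETS1-Low and 19.1 ± 0.81 CPM with ETS1-High, in the order of the labels. Here and below, ± after a level is the SD over the libraries of a group (n = 3), ± after a log2 change is its SE, and levels given without names follow the order RFP, ETS1-Low, ETS1-High. All 8 Ewing sarcoma markers examined, CD99 and NKX2-2 among them, exceeded 1 CPM in every group. Of 4 epithelial markers, KRT8 and KRT18 exceeded 1 CPM in every group while EPCAM and CDH1 had at most 9 counts in a library, and none of 4 blood markers exceeded 1 CPM in every group. Of 6 mesenchymal stromal markers, 4 exceeded 1 CPM in every group. The summed level was 81.0, 162 and 111 CPM for the epithelial list, 365, 396 and 541 CPM for the mesenchymal list and at most 0.111 CPM for the blood list. The mesenchymal markers went in both directions: COL3A1, which made up most of the sum in the ETS1 groups, had 176, 342 and 450 CPM, while PDGFRB had 74.2, 20.5 and 26.0 CPM and THY1 had 75.7, 5.07 and 12.7 CPM. The part of these differences in the results was not tested.

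LIN28A and LIN28B are RNA-binding proteins of the early embryo that hold precursors of the let-7 microRNAs and keep DROSHA and DICER1 from cutting them to the mature form. Mature let-7 accumulates as cells differentiate and represses transcripts that pair with its seed in the 3′ untranslated region (3′ UTR) or in coding sequence. Among them are those of LIN28A, LIN28B, HMGA2, the IGF2BP family, ARID3B and DICER1. The genes are called oncofetal because many of them are expressed in the embryo, low in most adult tissues and high again in tumours.

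The mature let-7 sequences are shown because every site counted below is a match to the same seed. RefSeq on GRCh38.p14 listed 12 loci that give 9 mature family members. Capitals mark the seed, bases 2 to 8 from the 5′ end, which was identical in all 9.
let-7a: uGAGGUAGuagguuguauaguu
let-7b: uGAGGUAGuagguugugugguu
let-7c: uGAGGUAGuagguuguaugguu
let-7d: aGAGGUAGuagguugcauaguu
let-7e: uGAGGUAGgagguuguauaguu
let-7f: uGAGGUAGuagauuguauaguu
let-7g: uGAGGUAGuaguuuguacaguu
let-7i: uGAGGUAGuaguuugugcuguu
miR-98: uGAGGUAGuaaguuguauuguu

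The transcripts of the axis were then searched for the strongest kind of seed match, the 8mer CTACCTCA, which is the reverse complement of the seed followed by A. Each line gives 22 bases of the GENCODE v44 canonical transcript on GRCh38, in the sense of the transcript, with the match in capitals. The first 9 lie in 3′ UTRs, and one site per line is shown so that the flanks can be compared with the let-7 sequences above.
LIN28A, chr1:26427349-26427370, plus strand: cacagcctattgaaCTACCTCA
LIN28B, chr6:105078813-105078834, plus strand: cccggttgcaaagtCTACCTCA
LIN28B, chr6:105081422-105081443, plus strand: tttacagcaaaaggCTACCTCA
HMGA2, chr12:65963299-65963320, plus strand: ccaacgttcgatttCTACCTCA
IGF2BP1, chr17:49051062-49051083, plus strand: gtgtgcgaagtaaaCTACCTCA
IGF2BP1, chr17:49053699-49053720, plus strand: agcagtgctagtaaCTACCTCA
IGF2BP1, chr17:49054353-49054374, plus strand: tataaatggattaaCTACCTCA
IGF2BP2, chr3:185644220-185644241, minus strand: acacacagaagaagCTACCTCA
IGF2BP3, chr7:23311795-23311816, minus strand: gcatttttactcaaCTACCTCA
The remaining 4 lie in coding sequence.
ARID3B, chr15:74595705-74595726, plus strand: ctgttcaccaagtcCTACCTCA
DICER1, chr14:95103748-95103769, minus strand: acccgtgcaaccaaCTACCTCA
DICER1, chr14:95103640-95103661, minus strand: aaatgctaacaaatCTACCTCA
DICER1, chr14:95094106-95094127, minus strand: gatgcgattttggaCTACCTCA

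An 8mer was present in the 3′ UTR of 6 of the 9 genes. Across 19571 canonical 3′ UTRs on the transcript strand, 3.75% held it. Long 3′ UTRs hold more matches of any motif: among the 7835 between 1347 and 6701 bases, the range of the 9 genes, 6.25% held it and 0.294% held 2 or more. IGF2BP1 had 3 such matches in a 3′ UTR of 6701 bases and LIN28B had 2 in 4549 bases. LIN28A, HMGA2, IGF2BP2 and IGF2BP3 had 1 each.

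Shorter matches were counted where no 8mer covered them, either CTACCTC (7mer-m8) or TACCTCA (7mer-A1). With these included all 9 genes had a match in the 3′ UTR, against 26.3% of 3′ UTRs in the same range of lengths. HMGA2 had 7 in all, made up of 1 8mer, 3 7mer-m8 and 3 7mer-A1 matches, in 2999 bases. ARID3B had 5 matches but no 8mer in its 3′ UTR, HMGA1 had a single 7mer-m8 match in 1347 bases, and DICER1 had 2 7mer-A1 matches in 4270 bases. In coding sequence DICER1 had 3 8mers, which 8 of 20457 coding sequences reached or passed, and ARID3B had 1. These matches are letters in a transcript, not measured sites of repression. Apart from HMGA1, the genes are listed above as known let-7 targets, so their matches are not independent of their choice as a set.

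**Figure D1:**
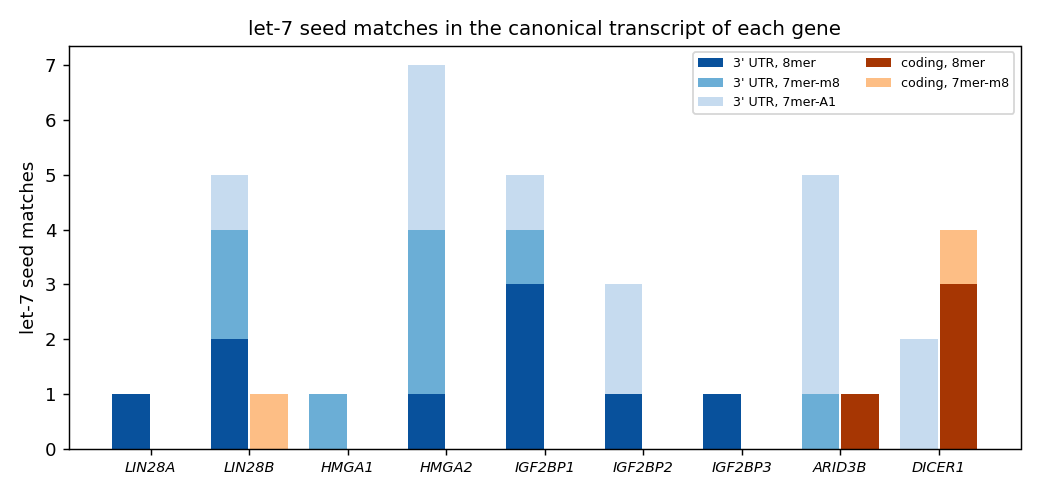
Number of let-7 seed matches (vertical axis) in the canonical transcript of each of the 9 genes, stacked by type, with 3′ UTR matches in blue and coding matches in orange; coding 7mer-A1 matches were not counted. HMGA2 has the tallest column with 7 matches, IGF2BP1 has the most 3′ UTR 8mers with 3, and DICER1 carries its 8mers in coding sequence.

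LIN28A (ENSG00000131914.10; GRCh38 chromosome 1, 26410817 to 26429728, plus strand, protein coding) blocks let-7 maturation in the cytoplasm and recruits the uridylyltransferase TUT4 to the precursor. It had 22.9, 23.1 and 25.3 CPM in the 3 RFP libraries, from 1100.99, 1084 and 1235 expected counts. In ETS1-Low the counts were 0, 0 and 1, and in ETS1-High they were 0 in all 3 libraries. Transcripts of LIN28A were thus present in every RFP library and at or below 1 count in every library with ETS1. Over the 3 libraries the level was at least 339.5-fold lower in ETS1-High than in RFP, with each library's 0 set to a floor of 3 counts. For ETS1-Low no floor was applied, and the counts summed over each group gave a ratio of RFP to ETS1-Low of 2940, with a 95% exact interval of 528 to 116000. It rests on 1 count in ETS1-Low replicate 3 against 3420 in RFP, covers counting error only, and is not to be compared with the bound for ETS1-High, where the floor is applied to each library. Whether fewer cells carried the transcript or each cell carried less cannot be told apart in bulk RNA. No fold is given between ETS1-Low and ETS1-High, since both lay under the floor.

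LIN28B (ENSG00000187772.7; chromosome 6, 104936616 to 105083332, plus strand, protein coding), the paralogue that can act on let-7 precursors in the nucleus, stayed expressed in all 9 libraries. It had 12.3, 12.4 and 11.9 CPM in RFP, 15.5, 12.6 and 14.7 CPM in ETS1-Low, and 10.9, 10.5 and 10.6 CPM in ETS1-High. The ETS1-High libraries were the lowest and the ETS1-Low libraries the highest, with the second ETS1-Low library only just above RFP. The log2 change was 0.22 ± 0.07 in ETS1-Low and -0.20 ± 0.07 in ETS1-High, each against RFP. In ETS1-High against ETS1-Low it was -0.42 ± 0.07, and -0.27 on log2(FPKM + 1). On the FPKM scale the ETS1-Low libraries, from 2.28 to 2.79, overlapped RFP, from 2.36 to 2.48, and the change on log2(FPKM + 1) fell to 0.06. LIN28B thus differed from RFP by 1.16-fold upwards and 1.15-fold downwards, in the libraries where LIN28A had 0 or 1 count.

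**Figure D2:**
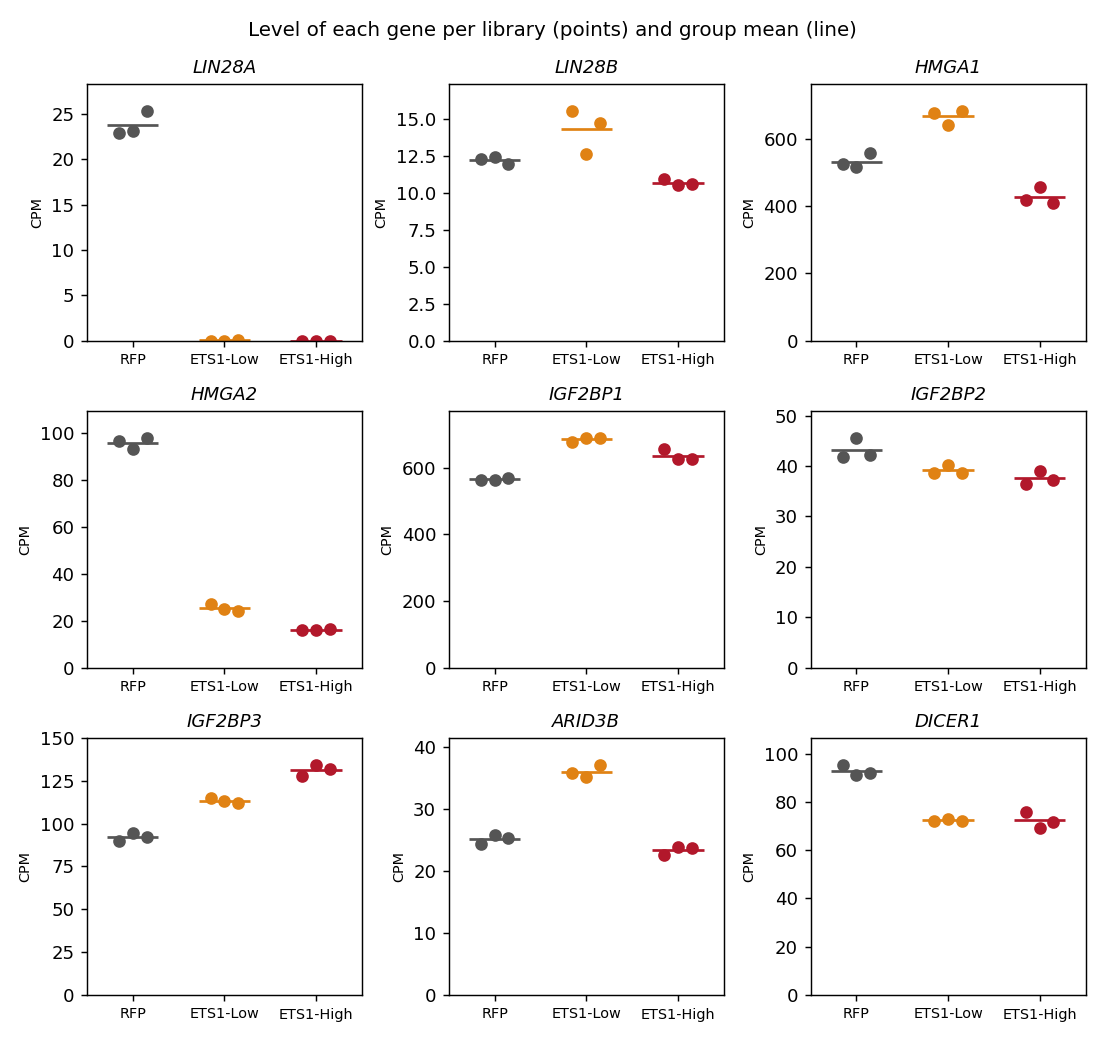
CPM of each gene (vertical axes start at 0) in the RFP, ETS1-Low and ETS1-High groups, with 1 point per library and a line at the mean of 3. LIN28A is at 22.9 to 25.3 CPM in RFP and on the axis elsewhere, HMGA2 steps down from 95.7 to 25.3 and 16.0 CPM, and IGF2BP3 steps up from 92.4 to 114 and 131 CPM.

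HMGA2 (ENSG00000149948.13; chromosome 12, 65824460 to 65966291, plus strand, protein coding) encodes a chromatin protein that bends AT-rich DNA and is the most studied let-7 target, with the 8mer shown above starting at base 21 of the 3′ UTR. It had 96.5, 92.9 and 97.6 CPM in RFP. It had 26.9, 25.1 and 24.0 CPM in ETS1-Low, and 15.9, 15.9 and 16.3 CPM in ETS1-High. The 3 groups did not overlap and ran in the reverse order of the ETS1 level. HMGA2 was 3.79-fold lower in ETS1-Low than in RFP (log2 change -1.92 ± 0.04) and 5.97-fold lower in ETS1-High (-2.58 ± 0.04). ETS1-High was a further 1.58-fold below ETS1-Low (-0.66 ± 0.05). Per length it was listed at 25.2 ± 0.81, 6.05 ± 0.29 and 3.91 ± 0.13 FPKM.

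HMGA1 (ENSG00000137309.19; chromosome 6, 34236873 to 34246231, plus strand, protein coding), the related chromatin protein, did not follow HMGA2. Its level was 526, 517 and 558 CPM in RFP, 678, 643 and 684 CPM in ETS1-Low, and 418, 457 and 410 CPM in ETS1-High. ETS1-Low was thus highest and ETS1-High lowest, with no overlap. HMGA1 was 1.25-fold higher in ETS1-Low than in RFP (log2 change 0.32 ± 0.04) and 1.24-fold lower in ETS1-High (-0.32 ± 0.04). Between the ETS1 groups the log2 change was -0.64 ± 0.04. On log2(FPKM + 1) the difference between ETS1-Low and RFP was 0.19. Expected counts divide reads among near-identical copies, and HMGA1 has processed pseudogenes, so its level is uncertain to that extent.

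IGF2BP1 (ENSG00000159217.9; chromosome 17, 48997385 to 49056145, plus strand, protein coding) is an RNA-binding protein that shields client transcripts, and its own 3′ UTR carries the 3 8mers shown above. It had 563, 564 and 568 CPM in RFP, 678, 688 and 688 CPM in ETS1-Low, and 655, 627 and 626 CPM in ETS1-High. Every library with ETS1 lay above every RFP library. The log2 change was 0.28 ± 0.03 in ETS1-Low and 0.17 ± 0.03 in ETS1-High against RFP, and -0.11 ± 0.03 between the ETS1 groups. On log2(FPKM + 1) these were 0.17, 0.11 and -0.06.

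IGF2BP3 (ENSG00000136231.13; chromosome 7, 23310209 to 23470491, minus strand, protein coding), the family member most often described in tumours, was higher in each step of the ETS1 level. It had 90.1, 94.8 and 92.3 CPM in RFP, 115, 113 and 112 CPM in ETS1-Low, and 128, 134 and 132 CPM in ETS1-High. No library of a group overlapped those of another. IGF2BP3 was 1.23-fold higher in ETS1-Low (log2 change 0.30 ± 0.03) and 1.42-fold higher in ETS1-High (0.51 ± 0.03) than in RFP. ETS1-High was 0.21 ± 0.03 above ETS1-Low on the log2 scale. On log2(FPKM + 1) the step to ETS1-Low was 0.19 and that between the ETS1 groups 0.33. The exons of MALSU1 overlap those of IGF2BP3 on the other strand and held 819 to 1312 counts per library, against 4334.42 to 6040.17 for IGF2BP3. The libraries were stranded per the labels, and whether the counting used the strand is not given in the sources used here.

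IGF2BP2 (ENSG00000073792.15; chromosome 3, 185643130 to 185825042, minus strand, protein coding) was the family member that was lower with ETS1. It had 41.7, 45.5 and 42.2 CPM in RFP, 38.7, 40.3 and 38.7 CPM in ETS1-Low, and 36.4, 39.1 and 37.3 CPM in ETS1-High. Both ETS1 groups lay below RFP and overlapped each other. The log2 change was -0.14 ± 0.04 in ETS1-Low and -0.20 ± 0.04 in ETS1-High against RFP, and -0.06 ± 0.04 between the ETS1 groups. On log2(FPKM + 0.1) the change in ETS1-High was -0.31. The 3 IGF2BP genes, all of which carry at least 1 8mer in the 3′ UTR, therefore differed in sign.

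ARID3B (ENSG00000179361.17; chromosome 15, 74541206 to 74598131, plus strand, protein coding) encodes an AT-rich DNA-binding protein. It had 24.3, 25.8 and 25.3 CPM in RFP, 35.8, 35.2 and 37.0 CPM in ETS1-Low, and 22.5, 23.8 and 23.7 CPM in ETS1-High. ETS1-Low stood above the other groups, and ETS1-High lay just under RFP. ARID3B was 1.43-fold higher in ETS1-Low than in RFP (log2 change 0.52 ± 0.04). In ETS1-High it was -0.11 ± 0.05 against RFP and -0.62 ± 0.05 against ETS1-Low. The first of these was -0.17 on log2(FPKM + 1).

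DICER1 (ENSG00000100697.14; chromosome 14, 95086228 to 95158010, minus strand, protein coding) encodes the ribonuclease that cuts microRNA precursors in the cytoplasm. It had 95.2, 91.3 and 92.1 CPM in RFP, 72.2, 73.1 and 72.1 CPM in ETS1-Low, and 76.0, 69.4 and 71.8 CPM in ETS1-High. The 2 ETS1 groups overlapped each other and lay below RFP. The log2 change against RFP was -0.36 ± 0.03 in both, a 1.28-fold lower level, and the change between the ETS1 groups was -0.0021 ± 0.04. DICER1-AS1 overlaps DICER1 on the other strand and held 13 to 132 counts per library, against 2729 to 4579 for DICER1.

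Per length, HMGA1 was the most abundant transcript of the axis in every group, at 326 FPKM in RFP, 373 FPKM in ETS1-Low and 244 FPKM in ETS1-High. IGF2BP1 came next, at 76.8, 86.6 and 83.0 FPKM, followed by IGF2BP3 at 28.2, 32.3 and 40.8 FPKM. HMGA2 ranked 4 of 9 in RFP and 7 of 9 in both ETS1 groups. In RFP the lower part of the order ran through IGF2BP2 at 15.5 FPKM, DICER1 at 11.7, LIN28A at 7.29, ARID3B at 7.19 and LIN28B at 2.42. LIN28A and ARID3B overlapped there, from 7.01 to 7.75 and from 6.84 to 7.66 FPKM, and no other neighbours in the order did in any group. LIN28A passed from rank 7 in RFP to rank 9 in both ETS1 groups, where it was listed at 0 in 5 of 6 libraries and at 0.01 FPKM in the other. That left LIN28B, at 2.58 FPKM in ETS1-Low and 1.97 FPKM in ETS1-High, as the more abundant LIN28 transcript in those groups.

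**Figure D3:**
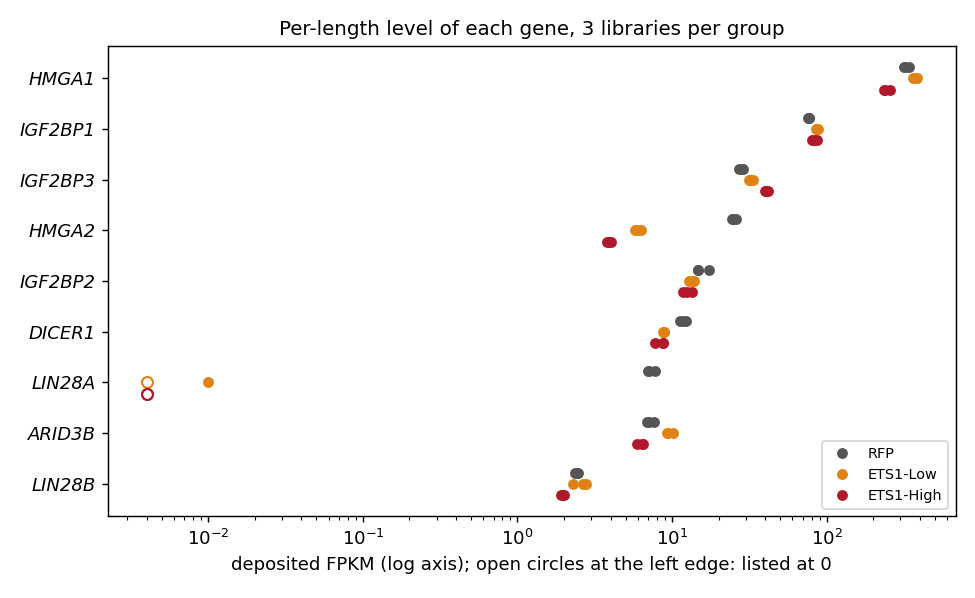
Deposited FPKM of each gene on a log axis, with 1 point per library coloured by group; open circles at the left edge are libraries listed at 0. HMGA1 is highest and LIN28B low in every group, while LIN28A lies near ARID3B in RFP and at or near the left edge in both ETS1 groups.

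In ETS1-High against RFP all 9 genes were called by edgeR at an adjusted p under 0.05, 2 higher and 7 lower. Of all genes tested 74.2% were called, 37.0% higher and 37.2% lower. In ETS1-Low against RFP all 9 were called, 5 higher and 4 lower, where 74.1% of all genes were, 37.9% higher and 36.2% lower. In ETS1-High against ETS1-Low 6 were called, 1 higher (IGF2BP3) and 5 lower (LIN28B, HMGA1, HMGA2, IGF2BP1 and ARID3B), against 59.2% of all genes, 29.9% higher and 29.3% lower. The libraries did not overlap for 9, 9 and 6 of the genes in these comparisons, beside 75.5%, 76.0% and 63.2% of all genes. The choice of the 9 genes used these contrasts, so nothing is read from the counts. Both comparisons with RFP share the same RFP libraries.

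Of the 9 genes, LIN28A and HMGA2 were past 2-fold in ETS1-High, as were 21.0% of all genes, and the same pair was in ETS1-Low, beside 20.6%. Between the ETS1 groups none of the genes with a measurable fold reached 2-fold, beside 9.74% of all genes. The median absolute log2 change against RFP over all genes was 0.40 for ETS1-High and 0.41 for ETS1-Low. LIN28B, IGF2BP1, IGF2BP2, HMGA1 and DICER1 differed by less than that in both, ARID3B by less in ETS1-High and by more in ETS1-Low, and IGF2BP3 by more in ETS1-High and by less in ETS1-Low.

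Each gene was set beside its tested neighbours within 10 Mb, to show how far its change was shared with the region. The 140 neighbours of ARID3B on chromosome 15 had a median log2 change of 0.26 in ETS1-Low against RFP and -0.36 between the ETS1 groups. The change of ARID3B beyond that median was 0.26 and -0.27. In ETS1-High against RFP ARID3B was within 0.01 of its neighbours' median of -0.09. The part of the region in the values of ARID3B was not tested further.

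The 104 neighbours of HMGA2 on chromosome 12 had a median of 0.02 in both comparisons with RFP. None of them had a lower change than HMGA2 in ETS1-High and 1 had in ETS1-Low. The 185 neighbours of LIN28A on chromosome 1 had a median of -0.0063 in ETS1-High and of 0.20 in ETS1-Low, and none of them was lower than LIN28A in either. HMGA2 and LIN28A were chosen with their changes known, so nothing is read from these ranks. For DICER1 the 86 neighbours had a median of -0.10 in ETS1-High and of -0.16 in ETS1-Low, which left -0.26 and -0.19 for the gene beyond its region. For IGF2BP3 the 57 neighbours had a median of 0.12 in ETS1-High against ETS1-Low, which left 0.09 of its change between the ETS1 groups. In the comparisons with RFP their median was 0.0026 for ETS1-High and 0.0069 for ETS1-Low. The 232 neighbours of HMGA1, the 220 of IGF2BP1, the 67 of IGF2BP2 and the 54 of LIN28B had medians between -0.07 and 0.06 in the 3 comparisons.

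**Figure D4:**
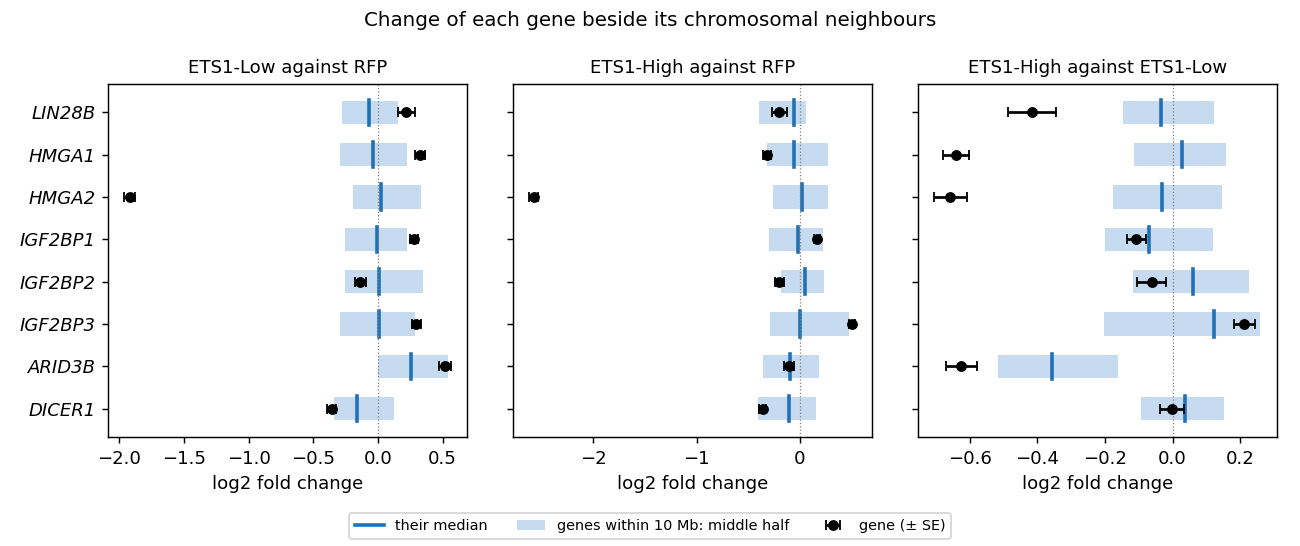
Log2 fold change (horizontal axes, with a scale of its own in each panel) of 8 genes, as points with SE, beside the middle 50% (bar) and median (line) of the tested genes within 10 Mb; LIN28A is left out because it has no measurable fold. HMGA2 lies far left of its neighbours in both comparisons with RFP, while the bar of ARID3B is itself shifted in the first and last panels.

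Genes with a pattern over the 3 groups like that of a member were sought for the members whose group means spanned at least 1 on the log2 scale, LIN28A and HMGA2. Likeness was the distance between the group-mean log2 CPM values, each taken relative to RFP, over 9 libraries and 12391 genes. With 0 or 1 count in the ETS1 libraries, the values of LIN28A on this scale are set by the prior count of 2 and not measured, so no likeness is given for it. Nearest to HMGA2 were KCNJ12, at 0.08, CTSV, at 0.10, and GATM, at 0.17. CTSV, which encodes a lysosomal protease, was -2.02 in ETS1-Low and -2.59 in ETS1-High relative to RFP on this scale, beside -1.92 and -2.58 for HMGA2.

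The mature let-7 microRNAs were not measured by these mRNA libraries. Of 12 rows for let-7 family hairpins, 11 held 0 in every library and MIRLET7D held 1 count in all. The longer transcripts that host let-7 loci could be followed instead. Among the 6 host genes tested, 4 were called higher and 2 lower in each comparison with RFP, with a median of 0.44 for ETS1-High and of 0.37 for ETS1-Low, beside -0.0094 and 0.01 over all genes. Of all genes 37.0% were called higher and 37.2% lower in ETS1-High, and 37.9% and 36.2% in ETS1-Low. Of 9 host genes listed 7 had a row, and MIRLET7A1HG and MIRLET7IHG had none. MIRLET7DHG, at 0 in every library, was not tested.

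MIR100HG, whose introns hold let-7a-2 rose with ETS1, from a mean of 7.87 ± 0.60 CPM to 16.5 ± 0.26 and 14.6 ± 0.34 CPM. Its log2 changes were 1.07 (edgeR, adjusted p = 4.51e-20) and 0.90 (adjusted p = 5.55e-17). MIR99AHG, which hosts let-7c, had 0 to 2 counts per RFP library, 24 to 31 in ETS1-Low and 20 to 22 in ETS1-High. WDR82, which spans let-7g, had 152 ± 5.3, 135 ± 0.54 and 181 ± 4.1 CPM. It fell by 0.17 in ETS1-Low (edgeR, adjusted p = 3.71e-06) and rose by 0.25 in ETS1-High (adjusted p = 2.83e-10), on the log2 scale. A host transcript's level is not a measure of the microRNA cut from it, and that link is itself what LIN28 acts on.

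The machinery that makes and uses small RNAs was covered by a list of 23 genes, all tested. In ETS1-High against RFP 11 were called higher and 10 lower, beside 37.0% and 37.2% of all genes, with a median of 0.01. In ETS1-Low 9 were higher and 10 lower, beside 37.9% and 36.2%, also with a median of 0.01. Between the ETS1 groups 11 were higher and 10 lower, beside 29.9% and 29.3%. The median there was 0.03, where all genes had -4.67e-05, and 13 calls were made on log2(FPKM + 1) in place of 21. The list held calls in both directions in all 3 comparisons, as all genes did, and its middle lay near theirs.

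DROSHA, the nuclear nuclease that makes the precursor, fell from 133 ± 1.9 CPM to 89.7 ± 3.3 and 94.6 ± 1.1 CPM. Its log2 changes were -0.57 (edgeR, adjusted p = 6.59e-22) and -0.49 (adjusted p = 1.63e-19). MSI1, an RNA-binding protein described as a partner of LIN28 in neural stem cells, fell further. It had 62.4 ± 2.4, 9.98 ± 0.07 and 11.2 ± 0.73 CPM, log2 changes of -2.64 (edgeR, adjusted p = 3.85e-42) and -2.47 (adjusted p = 2.16e-41). TRIM25, a cofactor for the uridylation of let-7 precursors, rose from 49.7 ± 0.60 CPM to 86.8 ± 0.70 and 79.1 ± 1.3 CPM. Its log2 changes were 0.81 (edgeR, adjusted p = 1.84e-27) and 0.67 (adjusted p = 4.15e-24). TNRC6C, a silencing-complex protein, fell by 1.33 in ETS1-Low (edgeR, adjusted p = 2.29e-27) and by 0.60 in ETS1-High (adjusted p = 5.25e-15).

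A list of 27 further let-7 targets was examined next. It was written from general knowledge of the field, as the other lists were, with earlier results of these data known. Its counts and medians are therefore descriptions. In their canonical 3′ UTRs 13 held an 8mer and 25 held a match of some kind. In ETS1-High against RFP 7 were called higher and 16 lower, where 37.0% and 37.2% of all genes were, with a median log2 change of -0.36. In ETS1-Low 10 were higher and 16 lower, where 37.9% and 36.2% of all genes were. The median there was -0.29, beside 0.01 over all genes. On log2(FPKM + 1) 17 calls were made in ETS1-Low in place of 26, and 22 without a filter on low values. Between the ETS1 groups 9 were higher and 10 lower, beside 29.9% and 29.3% of all genes, and the median was -0.01.

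Cyclin D2 (CCND2) fell furthest among the targets named by rule, from 23.6 ± 0.67 CPM to 0.225 ± 0.07 and 0.19 ± 0.04 CPM, log2 changes of -6.69 (edgeR, adjusted p = 1.08e-41) and -6.97 (adjusted p = 4.22e-42). From 6 to 12 counts of it remained in a library with ETS1. The receptor kinase TGFBR1 fell from 87.9 ± 1.6 CPM to 17.8 ± 0.98 and 46.9 ± 2.9 CPM, log2 changes of -2.31 (edgeR, adjusted p = 2.92e-41) and -0.91 (adjusted p = 1.39e-26). Other targets rose. One was the growth factor receptor IGF1R, which went from 101 ± 1.2 CPM to 238 ± 5.0 and 213 ± 7.5 CPM, log2 changes of 1.23 (edgeR, adjusted p = 1.64e-36) and 1.07 (adjusted p = 6.95e-34).

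TRIM71, MYCN and IGDCC3 lie outside the naming rule and were singled out after their values were seen. TRIM71, itself an embryonic let-7 target, fell from 9.12 ± 0.22 CPM to 1.20 ± 0.18 and 0.83 ± 0.25 CPM. Its log2 changes were -2.92 (edgeR, adjusted p = 2.56e-26) and -3.46 (adjusted p = 2.31e-28). MYCN, a growth regulator that is also described as an activator of LIN28B, fell from 17.8 ± 0.29 CPM to 1.18 ± 0.38 and 2.30 ± 0.20 CPM. IGDCC3 had 11 to 20 counts per RFP library and 0 in all 6 libraries with ETS1.

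LIN28A is best known from pluripotent and germ cells, and 19 genes of those cells were listed for that reason. Of these, 12 did not pass the filter on low counts. Among them POU5F1 had 9 to 25 counts per library in RFP, 1 to 5 in ETS1-Low and 0 to 3 in ETS1-High. NANOG, PRDM14, DPPA2, DPPA3, DPPA4, TDGF1, ZFP42, UTF1, GDF3 and ESRG, also among them, had 0 to 4 counts in any library. Of the 7 tested, 4 were called higher and 3 lower in ETS1-High against RFP, beside 37.0% and 37.2% of all genes. In ETS1-Low 2 were higher and 4 lower, beside 37.9% and 36.2% of all genes. The list medians were 0.10 and -0.35, where all genes had -0.0094 and 0.01.

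L1TD1, an RNA-binding protein that works beside LIN28A in stem cells, moved opposite to LIN28A. It had 4.81 ± 0.06, 27.0 ± 0.90 and 22.5 ± 0.95 CPM, log2 changes of 2.48 (edgeR, adjusted p = 2.25e-36) and 2.22 (adjusted p = 4.34e-34). SALL4, a zinc-finger factor described upstream of LIN28, rose from 0.75 ± 0.15 CPM to 3.86 ± 0.24 and 7.48 ± 0.39 CPM, by 2.36 (edgeR, adjusted p = 3.19e-20) and 3.31 (adjusted p = 7.34e-28). FOXD3, a factor of pluripotent and neural crest cells, fell, with log2 changes of -1.02 (edgeR, adjusted p = 5.82e-21) and -1.91 (adjusted p = 7.03e-31). SOX2, also chosen after its values were seen, had 85.9 ± 0.23, 70.2 ± 0.75 and 91.9 ± 1.9 CPM.

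The last list held 10 transcripts described as clients of the IGF2BP proteins. In ETS1-High against RFP 4 were called higher and 4 lower, where 37.0% and 37.2% of all genes were. In ETS1-Low 5 were higher and 5 lower, where 37.9% and 36.2% of all genes were. The medians were 0.05 and -0.02, beside -0.0094 and 0.01 over all genes. The 10 calls in ETS1-Low were not stable: on the FPKM scale 4 were made, and 6 with at least 10 counts required in every library. The adhesion receptor CD44 had 2.07 ± 0.23, 2.50 ± 0.10 and 17.0 ± 1.8 CPM. It rose by 3.04 on the log2 scale in ETS1-High (edgeR, adjusted p = 2.15e-32). In ETS1-Low its change was 0.28 with an adjusted p of 0.0423, which ranged from 0.0158 to 0.35 over the alternatives tried. MAPK4 fell from 1.45 CPM to 0.10 and 0.11 CPM, with 2 to 6 counts left in a library. ACTB, the cytoskeletal actin, rose by 0.22 and 0.50 on the log2 scale, and the ubiquitin ligase gene BTRC fell by 0.32 and by 0.52.

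**Figure D5:**
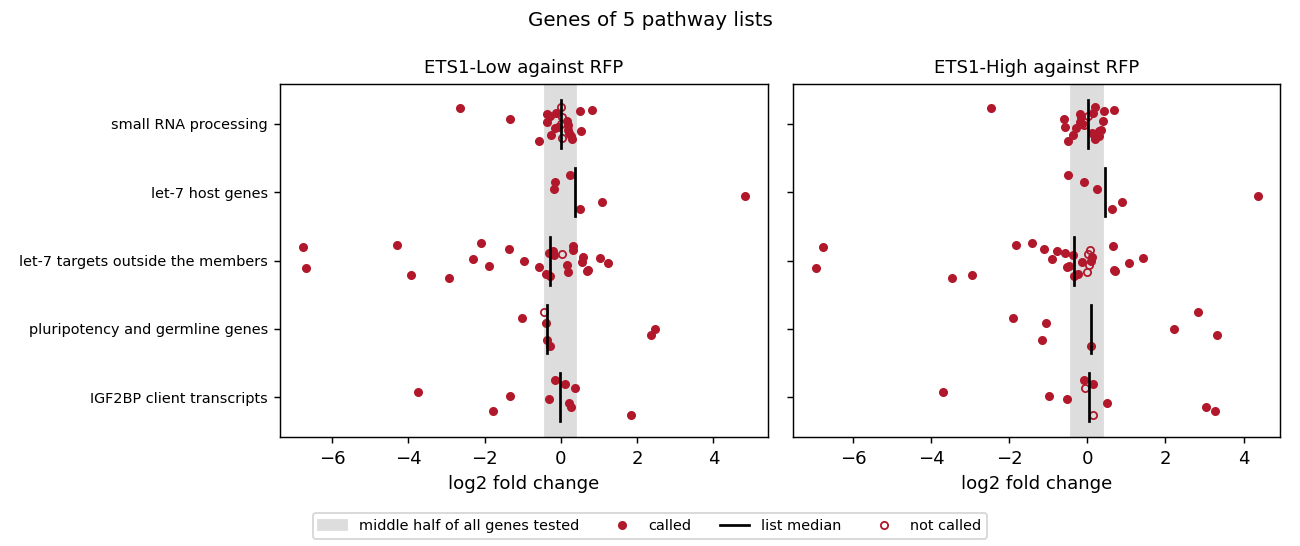
Log2 fold change against RFP (horizontal axis) of each tested gene of 5 lists, filled where called at an adjusted p under 0.05 and open where not, with the list's median as a line and the middle 50% of all genes in grey. The genes of each list lie on both sides of 0. The lists were written with earlier results of these data known. The median of the 27 further let-7 targets is -0.29 in ETS1-Low and -0.36 in ETS1-High.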

How the data were processed

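Stranded mRNA libraries of TC-32 cells were quantified per gene. The authors deposited RSEM expected counts and RSEM FPKM, per the file headers and names, with 1 column per library and none pooled. The submitters' processing notes also name cutadapt 4.4, STAR 2.7.3, featureCounts, Subread 2.0.3, limma 3.38.3 and GRCh38/hg38, without roles. The annotation and the strand setting are not given in the sources used here. Columns were matched by name (L and H read as Low and High), and 0 columns were left over.

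Expected counts, of which 9.00% to 10.3% per library were not whole, were rounded. They were tested with the edgeR 4.0.16 quasi-likelihood test (R 4.3.3, TMM, filterByExpr by group) in 1 fit of 9 libraries with group as the only factor. P-values were adjusted by Benjamini-Hochberg over 17235 genes and called under 0.05. Replicates differed by more than sampling noise, with a chi-square per gene of 2.66 to 5.19 where noise gives about 1. Each library was counted once, and this spread does not tell whether the libraries came from separate clones. The script was tested on simulated data.

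The members and lists were chosen with earlier results of these data known. From each list, the text names the 3 genes of lowest p in either comparison with RFP; some results that this rule selected are not reported here. Positions came from GENCODE v44 (99.2% of tested identifiers matched) and microRNAs from RefSeq. Counting errors and the floor of 3 counts cover counting error only, since the labels name no molecular identifiers. Alternatives were DESeq2 1.42.0, other size factors, filters and groups fitted, limma 3.58.1 on log2(FPKM + 1) or log2(FPKM + 0.1), a replicate block, and leaving out each library.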

Additional observations from a re-analysis of the deposited data

How the results depend on the processing

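Of 27 member changes, 25 kept their sign under all alternatives run. The exceptions were DICER1 in ETS1-High against ETS1-Low, which took the other sign in 7 of 16 settings within -0.07 to 0.03, and LIN28A in that comparison, which went to 0 without ETS1-Low replicate 3, the library with its 1 count. On FPKM the rises of LIN28B, HMGA1, IGF2BP1 and IGF2BP3 in ETS1-Low were smaller by over 1.5 times, and the median over all genes was then -0.07 in ETS1-Low and -0.08 in ETS1-High. Of the genes called against RFP, 49.8% were higher in ETS1-High and 51.2% in ETS1-Low, but 38.1% and 36.5% on unfiltered FPKM.

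Leaving out each library gave 12392 to 12591 genes called in ETS1-High against RFP, 12401 to 12488 in ETS1-Low against RFP and 9504 to 9720 between the ETS1 groups, where all libraries gave 12785, 12773 and 10196. Other settings gave 9578 to 13587, 9559 to 13437 and 7385 to 10218. The calls of the small RNA processing list between the ETS1 groups went from 21 to 13 on log2(FPKM + 1) and on log2(FPKM + 0.1), and to 11 without a filter. Those of the 27 let-7 targets in ETS1-Low went from 26 to 17 on log2(FPKM + 1) and on log2(FPKM + 0.1). On log2(FPKM + 1) without a filter on low values they went to 22. Those of the IGF2BP clients in ETS1-Low went from 10 to 6 with at least 10 counts in every library, where fewer genes were tested, and to 4 on each FPKM setting. For the others the cause was not tested.

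Of 889 alternative values of the named list genes, 846 kept direction and side of the threshold, 36 lost and 3 gained the call, and 4 took the other sign. These were CCND2 in ETS1-High against ETS1-Low, at 0.000264 on log2(FPKM + 1) with and without a filter and 0.0139 on log2(FPKM + 0.1), and MAPK4 there, at -0.234 without ETS1-Low replicate 1 and up to 0.354 without another library; none was called. Regional medians were also taken within 5 Mb, leaving out windows with fewer than 20 genes. A median counted as moved only if it differed from that within 10 Mb by at least the neighbours' interquartile range. For IGF2BP3 in ETS1-High against RFP that range ran from -0.288 to 0.481, around a median of 0.0026. None moved, but so wide a margin cannot tell whether the medians depend on the window.

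Replicate numbers did not pair the libraries: the correlations of the deviations of same-numbered libraries lay between -0.03 and 0.03 for all 9 pairs. The replicate block gave 12701, 12729 and 10122 genes called.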

Other observations

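Seed matches were also counted for all tested genes with a canonical 3′ UTR, a grouping chosen after the data were seen. The 13242 genes without an 8mer had a median log2 change against RFP of 0.0089 in ETS1-High and 0.02 for ETS1-Low, and the 569 genes with 1 match had -0.01 and -0.02. The 23 genes with 2 or more matches outside the 9 genes described above had -0.46 in ETS1-High, where 4 were called higher and 13 lower, and -0.42 in ETS1-Low, where 6 were higher and 15 lower. Over all 13836 genes 40.6% were higher and 39.3% lower in ETS1-High, and 41.1% higher and 39.1% lower in ETS1-Low. Between the ETS1 groups the 23 genes had a median of -0.01. The genes with 2 or more matches also had longer 3′ UTRs, with a median of 4251 bases against 1267 for those without, and the part of length in these medians was not tested.

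The group includes 5 of the let-7 targets listed above, TRIM71, FIGNL2, IGDCC3, BACH1 and NR6A1. Among the others, CBX5, the heterochromatin protein HP1 alpha, had a log2 change of -0.86 in ETS1-High and of -1.19 in ETS1-Low, and the Wnt receptor FZD3 had -1.06 and -0.88. SOCS4, a suppressor of cytokine signalling, had -0.69 and -0.78. XKR4 went the other way, at 1.38 and 0.82. These genes were named after their values were seen.

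H19, a maternally expressed non-coding RNA that can bind let-7, had 2 to 11 counts per library in RFP, 1 to 2 in ETS1-Low and 46 to 54 in ETS1-High. IGF2, its neighbour, had 4 to 9, 14 to 21 and 4 to 9 counts.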
